A study of Homo sapiens with 6 samples.

Results

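Integrins are transmembrane receptors built from an α and a β subunit that anchor cells to the surrounding matrix or to other cells. Laminins are trimers of an α, a β and a γ chain and form a main network of basement membranes, the sheets on which epithelial cells such as those of the bladder lining rest. The pairing of subunits sets what an integrin binds, and the laminin chains expressed set which trimers a cell can assemble. The genes were chosen by symbol alone, as integrin α and β subunit and laminin chain genes, which gave 38 of 20030 genes in the table, of which 37 are described. They comprise 18 integrin α subunits, 8 integrin β subunits and 11 laminin chains.

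Their RNA levels were measured in T24, an established human bladder cancer cell line, in an sh-circRIMS1 group and an NC group with 3 libraries each. In the sh-circRIMS1 cells circRIMS1 had been knocked down, a circular RNA whose name comes from the gene RIMS1, and the NC cells served as the control. The labels give neither the age of the cultures nor the time after knockdown, and the columns of the deposited table carry an si prefix where the titles carry sh, so the kind of knockdown reagent is not settled. Values are FPKM, fragments scaled by transcript length and library depth, so that genes of unequal length share a scale. The labels list a treatment with RNase R, an enzyme that digests linear RNA and spares circles, whereas the table holds high values for many genes known for linear mRNAs. How far linear RNA was removed is therefore unknown, and a level given below is the FPKM of a gene in these libraries, which may differ from its mRNA level in the cells. Whether removal differed between genes was not tested, so ratios and shares between genes are those of FPKM alone.

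The knockdown itself was not measured, since a gene-level FPKM pools linear and circular transcripts. RIMS1 was at 0.222, 0.24 and 0.308 FPKM in sh-circRIMS1 cells, against 0.426, 0.384 and 0.498 FPKM in the NC libraries. The defining bladder lining genes UPK1B, UPK3A and KRT20 were at 0 in all 6 libraries, while the keratins KRT7 and KRT18 and the mesenchymal filament gene VIM were abundant. Of the 15 urothelial markers 5 were tested. Of these 3 (KRT7, KRT18 and PPARG) were lower in sh-circRIMS1 and none higher, against 12.7% and 25.0% of all tested genes. The 15 markers summed to between 705 and 957 FPKM in sh-circRIMS1 and between 1244 and 1287 FPKM in NC. Their part in the results for integrins and laminins was not tested. One library stood apart. Across genes, log2 values of sh-circRIMS1 replicate 2 correlated at 0.974 and 0.975 with replicates 1 and 3, while replicates 1 and 3 correlated at 0.997 with each other and the NC libraries at 0.997 among themselves. Over the 18 described members abundant enough to be tested, replicate 2 lay a median of 0.22 from the mean of replicates 1 and 3 on the log2 scale, whereas replicates 1 and 3 lay 0.04 apart. In all 10408 tested genes these distances were 0.21 and 0.07.

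Of the 37 genes, 18 averaged 1 FPKM or more across the 6 libraries and entered the test across all genes. In the limma test at an adjusted p under 0.05, 5 were higher in sh-circRIMS1 cells, 5 were lower and 8 did not pass. Each direction is 27.8% of the 18, against a background of 25.0% of all tested genes higher and 12.7% lower (37.7% in either direction). Of all calls 66.3% were higher, against 51.7% under median-of-ratios scaling and 43.2% under quantile normalization, and none of the 10 called members changed direction under either scaling. The median log2 change was 0.06 for the 18 members and 0.06 for all tested genes. The genes that rose were the laminin chain LAMA5 and the integrin subunits ITGA2, ITGA5, ITGB3 and ITGB4, and those that fell were ITGA6, ITGAE, ITGB1, ITGB2 and ITGB8. The sh-circRIMS1 and NC values did not overlap for 14 of the 18, or 77.8%, against 57.5% of all tested genes. Without sh-circRIMS1 replicate 2, 7 members were higher and 7 lower, against 36.8% and 23.9% of all tested genes (60.7% in either direction). Without NC replicate 1, 2 or 3, 4 members were higher and 2 lower in each case, against 15.6% to 15.8% and 6.55% to 6.62% of all tested genes.

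**Figure D1:**
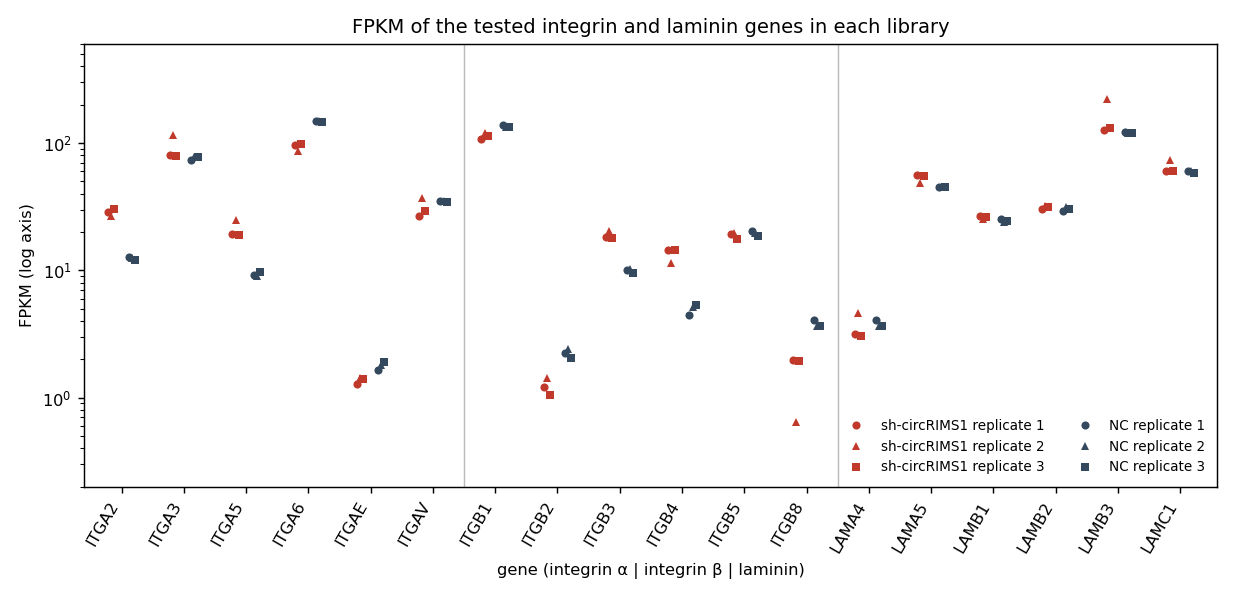
FPKM (log axis) of the 18 tested integrin and laminin genes in each library, with sh-circRIMS1 libraries in red left of NC libraries in dark blue and a marker shape for each replicate number. ITGB8 was at 0.638 FPKM in sh-circRIMS1 replicate 2 and at 1.94 and 1.97 FPKM in the other sh-circRIMS1 libraries, and was between 3.64 and 4.05 FPKM in NC.

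**Figure D2:**
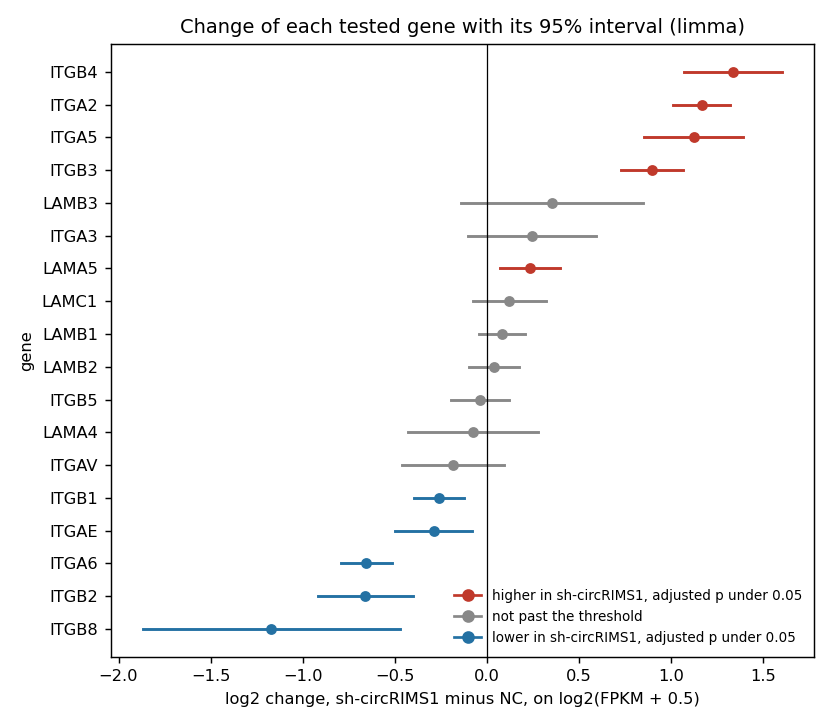
Log2 change (sh-circRIMS1 minus NC) of each tested gene with its 95% interval from limma, coloured by call. ITGB4 at 1.34 and ITGB8 at -1.17 are the ends of the range, and ITGB8 has a wide interval, from -1.87 to -0.47.

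Promoter sequences are shown for 4 called integrin genes, ITGA2 and ITGA5, which rose, and ITGA6 and ITGB8, which fell, so that the starts of genes that moved in opposite directions can be read side by side. They come from RefSeq on build GRCh38.p14, whose promoter table held 26 of the 37 genes. The sources used here do not give the build used by the authors. Each run is the 250 bases before an annotated start, 5′ to 3′ on the gene's own strand. The positions are chr5:52989102-52989351 on the plus strand for ITGA2, chr12:54419267-54419516 on the minus strand for ITGA5, chr2:172427336-172427585 on the plus strand for the downstream of the listed starts of ITGA6, and chr7:20330650-20330899 on the plus strand for ITGB8. Capitals mark matches, on either strand and including overlapping matches, to 6 motifs.
ITGA2: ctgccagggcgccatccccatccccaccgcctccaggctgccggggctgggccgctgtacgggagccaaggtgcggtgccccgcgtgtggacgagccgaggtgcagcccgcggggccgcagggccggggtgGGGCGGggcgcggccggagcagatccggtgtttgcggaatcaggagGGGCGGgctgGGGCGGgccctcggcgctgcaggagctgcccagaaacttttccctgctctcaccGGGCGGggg
ITGA5: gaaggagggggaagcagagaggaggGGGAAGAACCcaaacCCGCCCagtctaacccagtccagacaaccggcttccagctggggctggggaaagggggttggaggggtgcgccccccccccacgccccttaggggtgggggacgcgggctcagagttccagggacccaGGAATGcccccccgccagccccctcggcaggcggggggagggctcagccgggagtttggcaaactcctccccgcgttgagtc
ITGA6: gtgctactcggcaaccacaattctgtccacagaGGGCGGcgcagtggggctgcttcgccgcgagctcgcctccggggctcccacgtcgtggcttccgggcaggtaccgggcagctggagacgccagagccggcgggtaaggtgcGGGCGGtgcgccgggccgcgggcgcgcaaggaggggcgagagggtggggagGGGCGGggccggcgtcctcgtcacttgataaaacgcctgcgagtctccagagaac
ITGB8: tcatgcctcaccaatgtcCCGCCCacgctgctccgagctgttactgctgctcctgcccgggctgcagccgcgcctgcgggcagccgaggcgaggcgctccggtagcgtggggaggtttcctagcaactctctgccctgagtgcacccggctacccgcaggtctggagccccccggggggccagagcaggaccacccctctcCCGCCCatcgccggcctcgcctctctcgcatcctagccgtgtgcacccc
All capitals in ITGA2, ITGA6 and ITGB8 are GC boxes (GGGCGG or its reverse complement), a motif held by 42.6% of all 35116 windows of this length. ITGA5 also held a TEAD motif (GGAATG, in 11.9% of windows) at 82 bases and an NF-kB motif (in 22.6% of windows) at 225 bases before its start. The AP-1 motif (TGANTCA), the interferon-stimulated response element and the TATA box (TATAAA), held by 6.57%, 3.02% and 10.7% of windows, had no match in these 4 runs. The upstream of the listed ITGA6 starts, whose run is not shown, had a TATA box match on the opposite strand at 32 bases before it. A match is a run of letters and not a measured binding site.

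Among laminin chains LAMB3, the β3 chain of an epithelial laminin that anchors cells at hemidesmosomes, did not pass with all libraries. It stood at 126, 223 and 131 FPKM in sh-circRIMS1, against 123, 120 and 120 FPKM in NC, a log2 change of 0.35 whose 95% interval ran from -0.14 to 0.85 (limma adjusted p = 0.217). The groups did not overlap, and without replicate 2 LAMB3 was called at a log2 change of 0.09 (limma adjusted p = 0.0222). LAMA3, the α3 chain of the same laminin, was low, at 0.522, 0.812 and 0.515 FPKM in sh-circRIMS1 and 0.562, 0.503 and 0.474 FPKM in NC, below the filter (exact permutation p = 0.4). These partner chains were thus at unequal FPKM in both groups. LAMB3 was at 241 to 274 times the FPKM of LAMA3 in sh-circRIMS1 and at 219 to 252 times in NC. LAMB3 made up 68.9%, 79.5% and 69.5% of the summed β chain FPKM in sh-circRIMS1, against 69.4%, 68.2% and 68.5% in NC.

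LAMC1, the γ1 chain of most other laminins, measured 60.5, 73.1 and 60.6 FPKM in sh-circRIMS1 and 59.9, 60 and 57.9 FPKM in NC. Its log2 change was 0.12 with a 95% interval from -0.08 to 0.32 (limma adjusted p = 0.286). Without replicate 2 it was 0.03 (limma adjusted p = 0.4). LAMC3, another γ chain, was at 0.0488, 0.00844 and 0.0233 FPKM in sh-circRIMS1 and at 0.00858, 0 and 0.00863 FPKM in NC.

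**Figure D3:**
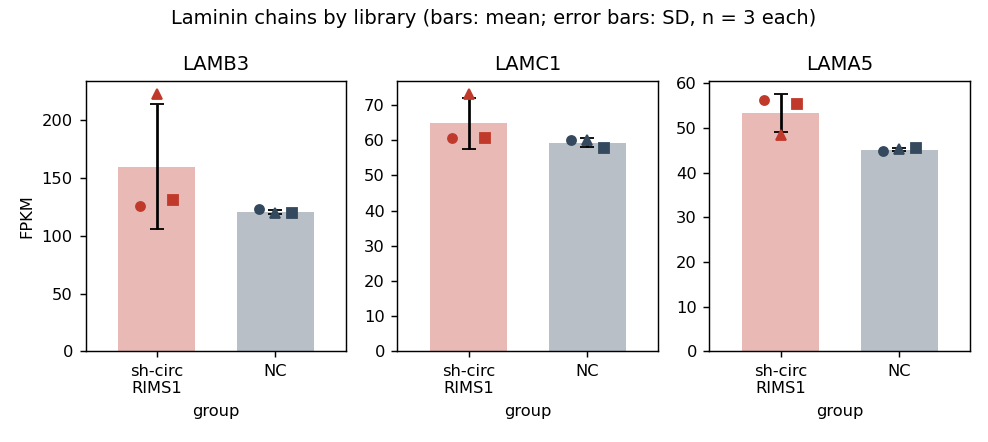
FPKM of LAMB3, LAMC1 and LAMA5 by library (points; shape gives the replicate number) with the mean (bar) and SD (error bar, n = 3 each), sh-circRIMS1 left of NC, each panel on its own axis from 0. In LAMB3 and LAMC1 replicate 2 is the highest sh-circRIMS1 library, and in LAMA5 it is the lowest, at 48.4 FPKM.

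LAMA5 (GeneID 3911), the α5 chain of the laminins of mature epithelial and vessel basement membranes, was the main α chain, at 89.6% to 93.6% of the summed α chain FPKM in sh-circRIMS1 and 90.5% to 91.5% in NC. It stood at 56.3, 48.4 and 55.4 FPKM in sh-circRIMS1, against 44.9, 45.2 and 45.5 FPKM in NC. The groups did not overlap, and the log2 change was 0.23 (SE 0.07, limma adjusted p = 0.0363). This call was lost under median-of-ratios scaling (adjusted p = 0.129), under the replicate block (adjusted p = 0.0723) and without any 1 library other than sh-circRIMS1 replicate 2.

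The remaining laminin chains that were tested differed little. LAMB1 and LAMB2, the β1 and β2 chains that pair with γ1, averaged 26.1 ± 0.814 and 31.2 ± 1.02 FPKM in sh-circRIMS1, against 24.6 ± 0.473 and 30.3 ± 1.23 FPKM in NC (SD, n = 3 each). Their 95% intervals ran from -0.04 to 0.21 and from -0.10 to 0.17 on the log2 scale (limma adjusted p = 0.262 and 0.619). LAMA4, the α4 chain of vessel and mesenchymal basement membranes, was at 3.17, 4.66 and 3.06 FPKM in sh-circRIMS1 and at 4.05, 3.65 and 3.66 FPKM in NC, where replicate 2 lay above and the other sh-circRIMS1 libraries below all NC values (limma adjusted p = 0.719). LAMB1 and LAMA4 were called without replicate 2, at 0.11 and -0.24 on the log2 scale (limma adjusted p = 0.0302 and 0.0137).

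The integrins that bind laminin moved in opposite directions. ITGA6 (GeneID 3655), the α6 subunit that pairs with β1 or with β4, fell. Its level was 95.9, 87.3 and 97.8 FPKM in sh-circRIMS1, against 149, 148 and 145 FPKM in NC. No values overlapped, the mean was 63.5% of that in NC, and the log2 change was -0.65 (SE 0.06, limma adjusted p = 0.000446). ITGB4 (GeneID 3691), the β4 subunit whose long cytoplasmic tail links α6β4 to keratin filaments at hemidesmosomes, rose. It was at 14.3, 11.4 and 14.5 FPKM in sh-circRIMS1, against 4.48, 5.15 and 5.34 FPKM in NC. Replicate 2 was the lowest of the sh-circRIMS1 libraries but above every NC library, and the log2 change was 1.34 (SE 0.11, limma adjusted p = 0.000372). The ratio of ITGA6 to ITGB4 was 6.69, 7.67 and 6.72 in sh-circRIMS1, against 33.3, 28.8 and 27.2 in NC. ITGB4 partly overlaps GALK1 in the annotation, which measured 17 ± 0.603 FPKM in sh-circRIMS1 and 13.9 ± 1.31 FPKM in NC (SD, n = 3 each).

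ITGA3, the α3 subunit of the epithelial laminin receptor α3β1, was at 79.8, 116 and 79 FPKM in sh-circRIMS1, against 73.6, 77.3 and 77 FPKM in NC. The groups did not overlap, but replicate 2 was far above the other libraries. The log2 change of 0.24 had a 95% interval from -0.10 to 0.59 (limma adjusted p = 0.225). Without replicate 2 it was 0.06 (limma adjusted p = 0.102). The share of ITGA6 in the summed α subunit FPKM was 37.6%, 29.5% and 37.6% in sh-circRIMS1, against 52.8%, 52% and 51.5% in NC. In sh-circRIMS1 replicate 2 ITGA3 was above ITGA6, with a ratio of ITGA6 to ITGA3 of 0.755, while in the other 5 libraries ITGA6 was the highest α subunit. ITGA7, a laminin receptor subunit of muscle, was at most 0.128 FPKM in any library.

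ITGB1 (GeneID 3688), the β1 subunit shared by the largest number of α partners, was the most abundant β subunit in all libraries. It was at 107, 119 and 113 FPKM in sh-circRIMS1, against 139, 134 and 134 FPKM in NC. The groups did not overlap and the log2 change was -0.26 (SE 0.06, limma adjusted p = 0.0123). The call was lost without NC replicate 1, 2 or 3 (adjusted p between 0.0519 and 0.0649) and under quantile normalization (adjusted p = 0.0561). Its share of the summed β subunit FPKM was 66.1%, 68.9% and 68% in sh-circRIMS1, against 77.1%, 76.6% and 77.4% in NC.

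The collagen receptor subunit ITGA2 (GeneID 3673), the α2 partner of β1, rose. Its level was 28.8, 26.5 and 30.3 FPKM in sh-circRIMS1, against 12.6, 12.5 and 12.1 FPKM in NC. The groups lay well apart, with a ratio of means of 2.3 and a log2 change of 1.17 (SE 0.07, limma adjusted p = 0.000109). ITGA1, the α1 collagen receptor subunit and neighbour of ITGA2 in the annotation, had a mean below the filter. It was at 1.57, 0.914 and 1.53 FPKM in sh-circRIMS1 and at 0.416, 0.456 and 0.406 FPKM in NC, with no overlap (exact permutation p = 0.1, the smallest that 3 against 3 libraries allow). PELO lies within ITGA1 in the annotation, and it measured 14.6 ± 0.861 FPKM in sh-circRIMS1 and 10.3 ± 0.373 FPKM in NC (SD, n = 3 each), so reads of the pair may not be separable. ITGA11, another collagen receptor subunit, was at 0.562, 0.743 and 0.556 FPKM in sh-circRIMS1 and at 0.369, 0.342 and 0.433 FPKM in NC (exact permutation p = 0.1). ITGA10 overlapped between the groups, at 0.421, 0.133 and 0.378 FPKM in sh-circRIMS1 and 0.152, 0.208 and 0.309 FPKM in NC.

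Among the subunits of receptors for fibronectin, vitronectin and other ligands with an RGD motif, ITGA5 and ITGB3 rose and ITGB8 fell. ITGA5 (GeneID 3678), which pairs with β1 in the main fibronectin receptor, was at 19.3, 25 and 18.8 FPKM in sh-circRIMS1, against 9.26, 8.98 and 9.73 FPKM in NC. Every sh-circRIMS1 library was above every NC library, and the log2 change was 1.12 (SE 0.11, limma adjusted p = 0.000686). ITGB3 (GeneID 3690), the β3 partner of αV in a vitronectin receptor, was at 18.2, 20.5 and 18 FPKM in sh-circRIMS1, against 10.1, 10.2 and 9.47 FPKM in NC. It too showed no overlap, with a log2 change of 0.89 (SE 0.07, limma adjusted p = 0.000299).

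ITGB5, the β5 partner of αV, was at 19.3, 19.8 and 17.7 FPKM in sh-circRIMS1 and at 20.2, 19.5 and 18.6 FPKM in NC, with a 95% interval from -0.19 to 0.12 on the log2 scale (limma adjusted p = 0.673). The ratio of ITGB3 to ITGB5 was 0.94, 1.03 and 1.02 in sh-circRIMS1, against 0.498, 0.524 and 0.509 in NC. ITGAV, the common αV partner, was at 26.6, 36.9 and 29.4 FPKM in sh-circRIMS1 and at 35.3, 35 and 34.5 FPKM in NC. Replicate 2 lay above the NC range and the other sh-circRIMS1 libraries below it (limma adjusted p = 0.244). Among the alternatives run, ITGAV was called only where replicate 2 was left out (log2 change -0.32, limma adjusted p = 0.000257) or weighted down with array weights (log2 change -0.28, limma adjusted p = 0.000517).

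ITGB8 (GeneID 3696), the β8 partner of αV in a receptor that activates latent TGF-β, was at 1.97, 0.638 and 1.94 FPKM in sh-circRIMS1, against 4.05, 3.64 and 3.65 FPKM in NC. Replicate 2 was the lowest library, and no values overlapped. The log2 change was -1.17 (SE 0.29, limma adjusted p = 0.0211), and without replicate 2 it was -0.80 (limma adjusted p = 1.53e-05). The call was lost without NC replicate 1, 2 or 3 (adjusted p between 0.0647 and 0.0759). ITGB6, the β6 partner of αV in epithelia, stayed at or below 0.115 FPKM, ITGA8 at or below 0.0108 FPKM, and the platelet subunit ITGA2B between 0.106 and 0.444 FPKM with overlapping groups.

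**Figure D4:**
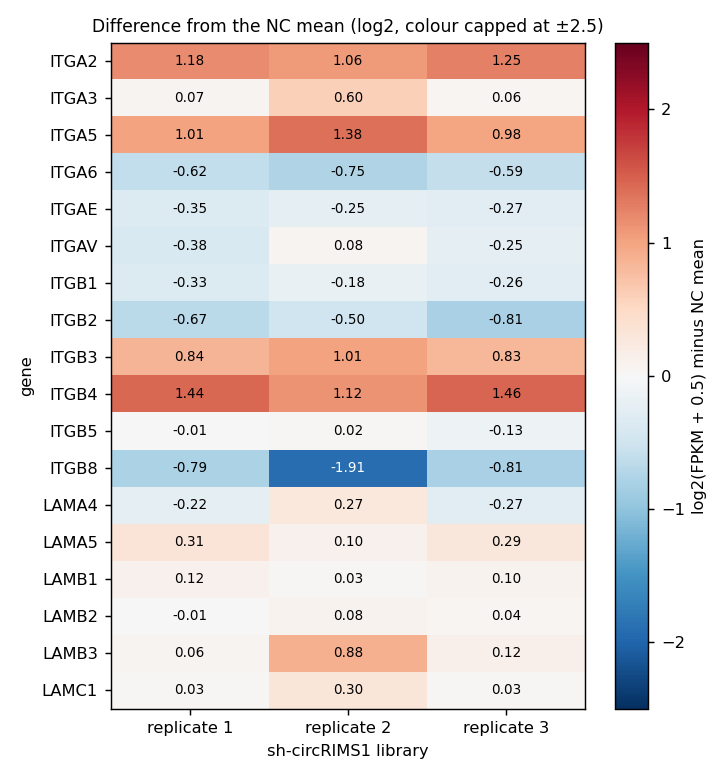
Log2(FPKM + 0.5) of each sh-circRIMS1 library minus the NC mean, for the 18 tested genes. Replicate 2 lies farthest from the mean of replicates 1 and 3 in ITGB8, by -1.11, and next in LAMB3, by 0.79. ITGAV, ITGB5, LAMA4 and LAMB2 have mixed signs, and the other genes, ITGB8 and LAMB3 among them, have the same sign in all 3 libraries.

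Subunits of integrins best known from leukocytes were low. ITGB2 (GeneID 3689), the β2 subunit of leukocyte integrins, fell, at 1.22, 1.43 and 1.05 FPKM in sh-circRIMS1 against 2.26, 2.39 and 2.06 FPKM in NC, with a log2 change of -0.66 (SE 0.11, limma adjusted p = 0.00425). ITGAE (GeneID 3682), the αE subunit that binds E-cadherin, was at 1.29, 1.42 and 1.39 FPKM in sh-circRIMS1 and at 1.64, 1.8 and 1.9 FPKM in NC. Its log2 change of -0.29 (SE 0.09) passed narrowly (limma adjusted p = 0.04), and the call was lost under the replicate block (adjusted p = 0.0918) and without any 1 library other than sh-circRIMS1 replicate 2. It overlaps HASPIN and P2RX5 in the annotation, of which P2RX5 was higher in sh-circRIMS1, at 20.5 ± 1.72 FPKM against 14.1 ± 0.602 FPKM in NC (SD, n = 3 each).

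The α partners of β2 were near 0. ITGAX, the αX subunit, was at 0.202, 0.441 and 0.295 FPKM in sh-circRIMS1 and at 0.0184, 0.00787 and 0 FPKM in NC (exact permutation p = 0.1). ITGAM was at 0.0373, 0.00951 and 0.0448 FPKM in sh-circRIMS1 and listed at 0 in all NC libraries. ITGAL was above 0 in 1 library of each group, and ITGAD was listed at 0 in all 6. The 11 leukocyte markers used include ITGAX, ITGAM and ITGB2 themselves. Of the 11, CD3D, CD3E and MS4A1 were at 0 in every library, and PTPRC reached at most 0.05 FPKM. The summed level ran from 18.4 to 25.5 FPKM in sh-circRIMS1 and from 7.25 to 8.48 FPKM in NC. Most of it came from CD68, a lysosomal glycoprotein also made outside leukocytes. Without ITGB2, CD68 and CD14 the sum, which still holds ITGAX and ITGAM, was 0.338 to 0.507 FPKM in sh-circRIMS1 and 0 to 0.0388 FPKM in NC. In a bulk sample a change in the share of cells that make an RNA and a change in its level per cell cannot be told apart.

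In all, 19 members lay below the filter, of which ITGA9, ITGAD and LAMB4 were listed at 0 in every library. The groups did not overlap for 6 of them, ITGA1, ITGA11, ITGAM, ITGAX, LAMA1 and LAMA2, each higher in sh-circRIMS1. Among all 5809 genes below the filter and above 0 in some library, 29.0% were higher without overlap and 2.96% lower. LAMA1 was at 0.106, 0.129 and 0.162 FPKM in sh-circRIMS1 and at 0.0663, 0.0943 and 0.048 FPKM in NC, and LAMA2 was between 0.04 and 0.0463 FPKM in sh-circRIMS1 and between 0.0298 and 0.0378 FPKM in NC. ITGA4 and ITGB7 were at or below 0.0346 FPKM. When no filter was applied, ITGA1, ITGA11 and ITGAX were also called higher, giving 8 members higher and 5 lower, against 20.8% and 7.81% of 16217 genes (28.6% in either direction).

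Genes that act with integrins and laminins were taken from lists by role. Of 11 tested genes of other basement membrane components, 8 were higher and 1 lower, against 25.0% and 12.7% of all tested genes, and the list median was 0.83 on the log2 scale against 0.06. AGRN, the heparan sulfate proteoglycan agrin that binds laminin, rose to 71.1, 72.5 and 69.4 FPKM in sh-circRIMS1, against 38, 38.1 and 36.6 FPKM in NC (log2 change 0.91, limma adjusted p = 9.49e-05). The collagen IV chains COL4A1 and COL4A2 and the proteoglycan HSPG2 rose by 1.12, 0.89 and 1.03 on the log2 scale. The 9 endothelial markers summed to between 64.7 and 81.2 FPKM in sh-circRIMS1 and between 48.9 and 51.2 FPKM in NC, with TEK at 0 in every library. Of these markers 5 were tested, 4 were higher and 0 lower, and 2 of the 5 had a mean below 1 FPKM in 1 group. The 8 fibroblast markers summed to between 41.9 and 44.4 FPKM in sh-circRIMS1 and between 43.7 and 44.4 FPKM in NC. The part of either marker list in this result was not tested. NTN4, a laminin-related netrin, was the member that fell, at 6, 15.3 and 6.43 FPKM in sh-circRIMS1 against 20, 19.1 and 18.5 FPKM in NC (log2 change -1.14, limma adjusted p = 0.031). Without replicate 2 the NTN4 change was -1.55 (limma adjusted p = 1.52e-08), and the call was lost without any other 1 library (adjusted p between 0.0809 and 0.0974) and with no filter (adjusted p = 0.0569).

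Of 8 tested matrix ligands outside the basement membrane 2 were higher, 3 were lower and 3 did not pass, and the list had a median of -0.08. Over all tested genes the shares were 25.0% higher and 12.7% lower. FN1, which encodes fibronectin, a ligand of α5β1, rose to 579, 754 and 581 FPKM in sh-circRIMS1, against 311, 310 and 304 FPKM in NC (log2 change 1.04, limma adjusted p = 0.000699). The matricellular ligand CTGF fell by 2.09 and THBS1, thrombospondin 1, by 1.14 on the log2 scale, while MFGE8, an RGD ligand, rose by 0.58, a call lost under quantile normalization (limma adjusted p = 0.154). Of 4 tested cell-surface ligands 3 were higher and 1 lower, against 25.0% and 12.7% of all tested genes, with a list median of 1.02. The β2 integrin ligands ICAM1 and ICAM2 and the junction protein gene F11R rose, with log2 changes of 0.73, 1.30 and 2.05, whereas ICAM3 fell by 0.44. ICAM2, 1 of the 3 counted as higher, averaged below 1 FPKM in NC and entered the test only through its level in sh-circRIMS1. It lay below the filter, and so was not tested, when any 1 sh-circRIMS1 library was left out. Its change was 0.84 under quantile normalization. The ICAM3 call was lost without sh-circRIMS1 replicate 3 or NC replicate 1, 2 or 3 (limma adjusted p between 0.0641 and 0.123) and with no filter (adjusted p = 0.058).

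Inside the cell, 11 of 21 tested adhesion plaque genes fell, 2 rose and 8 did not pass, and the list had a median of -0.18. Of all tested genes 12.7% fell and 25.0% rose. Without NC replicate 1, 2 or 3 the number that fell was 6, 5 and 6 and the number that rose was 1 each time. In those fits 6.55% to 6.62% of all tested genes fell and 15.6% to 15.8% rose. PARVA, a parvin that joins integrin-linked kinase to actin, fell to 10.9, 9.83 and 10.7 FPKM in sh-circRIMS1, against 16.4, 16.3 and 16.7 FPKM in NC (log2 change -0.63, limma adjusted p = 0.000578). The scaffold BCAR1 and the adaptor CRK fell by 0.32 and 0.35 on the log2 scale. TNS4, a tensin that binds β integrin tails, rose instead, to 5.32, 4.71 and 5.7 FPKM in sh-circRIMS1 against 0.354, 0.36 and 0.457 FPKM in NC (log2 change 2.69, limma adjusted p = 2.66e-05). TNS4 was below 1 FPKM in every NC library, so it entered the test only through its level in sh-circRIMS1. Of 11 tested integrin activators and inhibitors 3 were higher and 4 lower, against 25.0% and 12.7% of all tested genes. TLN1, talin 1, which switches integrins to the active state, and FLNA, a filamin that competes with talin for β tails, fell by 0.49 and 0.40 on the log2 scale. ITGB1BP1, an inhibitor of β1 activation, fell by 0.38, and the kindlin FERMT1 rose by 0.74.

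The list of other laminin receptors held 7 tested genes, among them CD151, which also stands in the hemidesmosome list. RPSA, which has many processed pseudogene copies that can share its reads, fell by 0.46 on the log2 scale. The syndecan SDC4 rose by 0.73, and 5 did not pass, while 25.0% of all tested genes were higher and 12.7% lower. SDC4 was at 256, 160 and 261 FPKM in sh-circRIMS1 and at 133, 132 and 132 FPKM in NC. Without replicate 2 its log2 change was 0.96 (limma adjusted p = 1.94e-09), and the call was lost without any other 1 library (adjusted p between 0.0581 and 0.0697). Of the hemidesmosome genes besides ITGA6 and ITGB4, COL17A1, the transmembrane collagen XVII, rose to 2.61, 1.41 and 2.24 FPKM in sh-circRIMS1, against 0.704, 0.522 and 0.76 FPKM in NC (log2 change 1.13, limma adjusted p = 0.00509). COL17A1 too was below 1 FPKM in every NC library and entered the test only through its level in sh-circRIMS1. DST, whose epithelial form is a plaque protein of hemidesmosomes, fell by 0.97, and PLEC and CD151 did not pass (limma adjusted p = 0.759 and 0.334). Over the 65 tested genes of these lists that are not integrins or laminins, 20 were higher and 22 lower, against 25.0% and 12.7% of all tested genes. Of the 65, 4 had a mean below 1 FPKM in 1 group and passed the filter through the other group.

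**Figure D5:**
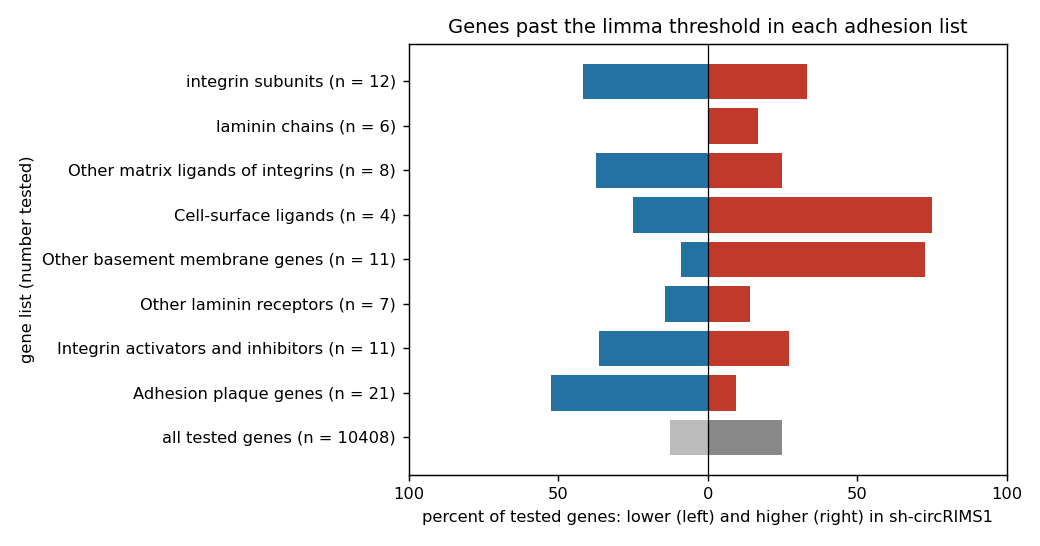
Percent of the tested genes of each list that were higher (right) or lower (left) in sh-circRIMS1 at a limma adjusted p under 0.05, with the number tested in brackets and all 10408 tested genes in grey. Basement membrane genes lie mostly to the right, with 8 of 11 higher. Adhesion plaque genes lie mostly to the left, with 11 of 21 lower. Without any 1 NC library that count was 5 or 6, against 6.55% to 6.62% of all tested genes.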

How the data were processed

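The authors deposited 1 table of FPKM for 6 libraries, with gene symbols and GeneIDs. Per the labels' protocols, total RNA was depleted of ribosomal RNA and treated with RNase R, which digests linear RNA, and directional libraries were made. Per the submitters' processing notes, the tools included StringTie, HTSeq, Cufflinks, HISAT2, DESeq and Trimmomatic. The sources used here give no versions, roles, genome build or strand setting. FPKM removes depth, so absolute depth is unknown. Steps of low genes placed the other 5 libraries at 1.01 to 1.17 times the depth of NC replicate 1.

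No count model was used. Log2(FPKM + 0.5) was fitted in limma 3.58.1 (R 4.3.3) with group as the only term and a mean-dependent variance prior, for genes averaging 1 FPKM or more, with two-sided Benjamini-Hochberg adjustment at 0.05 over 10408 genes. Changes on this scale understate those of low genes. Low members were given exact two-sided permutation tests. The fit was tested on simulated data. Members, lists and tests were chosen with earlier results of these data known. One gene that the rule picks and 1 listed marker are not reported here and stay only in the fit across all genes. Every other member is accounted for, and up to 4 called genes per list with the smallest p were named, with NTN4, PLEC and CD151 added after their values were seen. The labels do not say whether replicates were separate cultures, so p-values cover just the variation among these 6 libraries, which may be technical. Alternatives changed the pseudocount, filter, scaling, weights, replicate block and libraries.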

Additional observations from a re-analysis of the deposited data

How the results depend on the processing

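The direction of all 10 called members held under each alternative, and the calls of ITGA2, ITGA5, ITGA6, ITGB2, ITGB3 and ITGB4 held in every alternative that tested them. Among members that were not called, leaving out 1 library gave LAMA4 values from -0.24 to 0.024, above 0 without sh-circRIMS1 replicate 1 (0.00066) or 3, and ITGB5 values from -0.069 to 0.0091, above 0 without sh-circRIMS1 replicate 3. LAMB2 was -0.035 under median-of-ratios scaling. The count of lower members was 2 at a mean FPKM of at least 5, where only 14 members were tested and 16.0% of all tested genes were lower. The count of higher members was 8 without a filter, where 20.8% of all tested genes were higher. Leaving out 1 library gave 2 to 7 lower and 4 to 7 higher members, against 6.55% to 23.9% and 15.6% to 36.8% of all tested genes. Over all genes, 1469 were higher with that stricter filter, and 1588 were higher and 2085 lower under quantile normalization, which moved the median of all genes by -0.12. Calls were thus 43.2% higher under quantile normalization and 51.7% under median-of-ratios scaling, against 66.3% with FPKM as deposited. With array weights 3983 genes were higher and 2424 lower. Without 1 library, between 1630 and 3803 genes were higher and between 685 and 2474 lower. In those fits 12 to 28 of the listed genes other than members were lower, against 6.55% to 23.9% of all tested genes. The cause of these moves was not tested. With the replicate block, 4 members were higher and 4 lower, against 20.6% and 9.57% of all tested genes (2142 higher and 996 lower). ITGAE and LAMA5 were the members whose calls were lost. Deviations of libraries with the same number correlated at -0.026, -0.003 and -0.040, and no sh-circRIMS1 library correlated best with the NC library of its own number, so the numbers were not taken as pairs. The differences of ITGA1, ITGA11 and ITGAX, which lay below the filter, ran from 0.795 to 1.12, 0.177 to 0.271 and 0.24 to 0.359 FPKM without 1 library. Since depth is unknown, no counting error could be given for low members such as ITGAE, ITGB2 and ITGB8.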
